A study of Mus musculus with 9 samples.

Results

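Synovial fibroblasts (SFs) are the mesenchymal cells that line and support the joint. In hTNFtg mice, which carry a human TNF transgene and develop arthritis, cultured ankle SFs were compared with and without infliximab over every gene whose normalized count averaged 10 or more in the 6 libraries concerned. That threshold kept 13606 of the 49548 genes in the table, of which 11519 are protein-coding. The lowest mean inside it was 10 and the highest outside it was 9.83. The groups were 3 libraries of untreated hTNFtg SFs and 3 of hTNFtg SFs given infliximab at 1 µg/mL for 48 hours, out of 9 libraries in the series. The other 3 libraries, from untreated wild-type (WT) SFs, are quoted for their levels only. All SFs were grown from ankle joints of 8-week-old mice and had been depleted of CD45+ cells at passage 1. For the untreated SFs the labels list no treatment and the methods mention vehicle over the same 48 hours. The methods call the 3 libraries of a group biological replicates, but no label says which mice or cultures they came from.

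TNF binds its receptors and frees NF-kB from its IkB inhibitors, and NF-kB and AP-1 then switch on chemokines, proteases and acute phase proteins. In the arthritic joint SFs are a known source of such products, which attract leukocytes and degrade cartilage. Infliximab is an antibody that binds human TNF and keeps it from its receptors. It does not act on the mouse TNF of these cells, and the human transgene has no row of its own among the mouse genes.

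The value of a gene is its normalized count, taken here as the number of reads on the gene scaled by a single factor per library. The 3′ sequencing method reads each transcript once near its end, so levels do not grow with gene length. Untreated replicate 1 was the shallowest library, with about 614023 reads against an estimated 3828346 to 9012189 in the other 5. In those 5 the whole numbers do not resolve reads, so their read values are approximate. One read was worth 6.21 normalized counts in untreated replicate 1 and an estimated 0.534 to 1.10 in the others. The floor, taken as 3 reads, thus stood at 18.6 normalized counts in that library and at about 1.60 to 3.31 elsewhere. The infliximab libraries ranked their genes alike (Spearman's rho across genes 0.947 to 0.967), while untreated replicates 1 and 3 reached 0.776. The 14 fibroblast markers were measured in all libraries and none was at 0 in the 6 compared. Their summed level ran from 76917 to 83776 without treatment and from 86952 to 107869 with infliximab. S100a4 alone made up much of it, at 23125, 38677 and 30145 against 63222, 40182 and 41758. The other 13 markers, summed after the values were seen, ran from 45099 to 56800 and from 44647 to 52186, so that the groups overlapped. None of the 14 was called, 5 were below 0 and the median log2 fold change was 0.08. In bulk RNA, fewer cells of a type and less RNA per cell cannot be told apart.

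A gene is called lowered or raised here by the rule of the study, which asks for an unadjusted P below 0.05 together with a change of 1 or more on the log2 scale. By this rule infliximab lowered 121 genes (0.889% of those tested) and raised 193 (1.42%), or 314 genes in either direction (2.31%). No gene had an adjusted p under 0.05 (limma with Benjamini-Hochberg adjustment, lowest adjusted p = 0.391). An unadjusted P under 0.05 was found for 653 genes, 4.80% of all tested, which is about the share that a threshold of 0.05 admits when no gene differs. The calls are therefore a ranking of 3 libraries against 3, and the genes that follow are described by their values in every library. The quasi-likelihood test of edgeR on approximate reads also left 0 genes at an adjusted p under 0.05, with 781 at an unadjusted P under 0.05. With edgeR the rule gave 229 lowered and 187 raised genes, so that fewer were raised than lowered. At the edge of the rule in limma, Lrmp (-1.01) was called while Kcnn4, just short of -1, was not. Zscan21, just above 1, was called while Tubb2b (0.999) was not. The infliximab libraries all lay below the untreated ones for 792 genes (5.82%) and above them for 878 (6.45%).

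**Figure D1:**
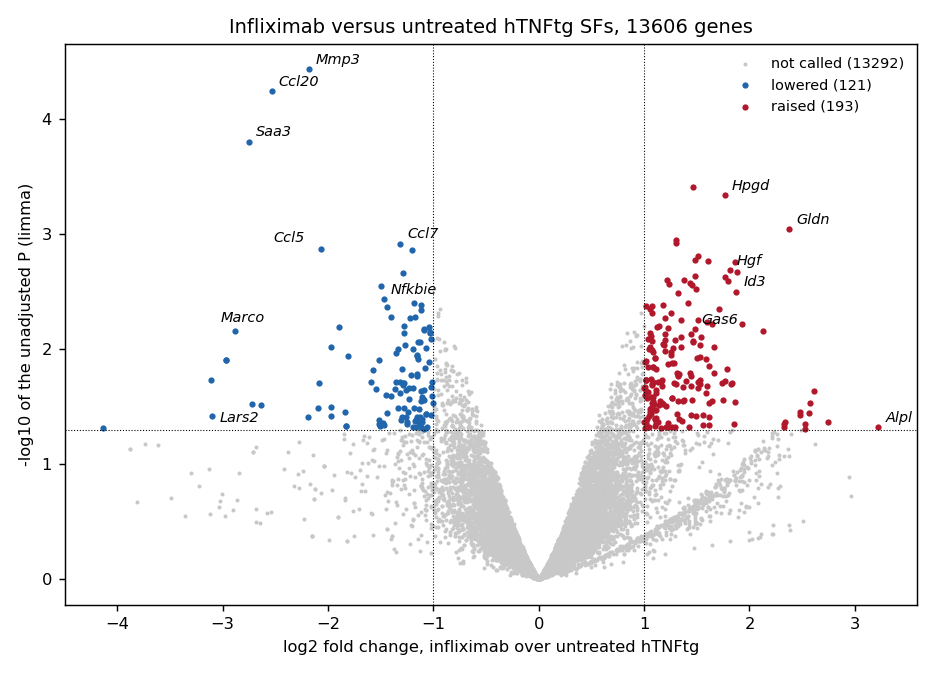
Log2 fold change of infliximab-treated over untreated hTNFtg SFs (horizontal axis) against -log10 of the unadjusted limma P (vertical axis) for 13606 genes. Dotted lines mark the rule, the 121 lowered genes are blue and the 193 raised genes are red, and Mmp3, Ccl20 and Saa3 stand highest.

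The 3 genes with the smallest P were Mmp3, Ccl20 and Saa3, all lower with infliximab. Mmp3, or stromelysin-1, a protease that cleaves cartilage proteoglycans (mm10, chr9:7445822-7455975), stood at 3170, 4055 and 4079 in the untreated libraries and at 865, 642 and 1004 with infliximab. The 2 groups lay far apart, with a mean 4.50 times higher without the antibody (log2 fold change -2.18 ± 0.28 SE, limma adjusted p = 0.391). Ccl20, which attracts T helper 17 cells and dendritic cells (chr1:83116766-83119167), had 1439, 696 and 650 untreated against 150, 129 and 170 treated. Its untreated mean was 6.20 times the treated one (log2 fold change -2.53 ± 0.35 SE, limma adjusted p = 0.391). Saa3, the serum amyloid A made outside the liver (chr7:46711998-46715700), measured 4933, 3796 and 2073 untreated and 822, 470 and 329 treated. Every treated library was below every untreated one, and the log2 fold change was -2.75 ± 0.43 (SE, limma adjusted p = 0.718). In WT SFs the same genes stood lower again, at 90 to 141 for Mmp3, 10 to 15 for Ccl20 and 15 to 23 for Saa3.

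Leaving out each of the 6 libraries in turn, 20 of the 121 lowered genes and 38 of the 193 raised genes met the rule every time. Mmp3, Ccl20 and Saa3 were among the 20. Their log2 fold changes then ran from -2.33 to -2.005, from -2.74 to -2.17 and from -3.10 to -2.44. Without untreated replicate 1, Mmp3 and Ccl20 reached an adjusted p of 0.0256 in limma, together with 3 noncoding or pseudogene entries, Gm23378, Gm14892 and Gm29228. Those 3 were high in untreated replicates 2 and 3 only. Gm23378 and Gm14892, at 217 and 263 there, were at 0 in untreated replicate 1, and Gm29228 stood at 106 and 123 against 6. Without untreated replicate 1 and infliximab replicate 3 together, only Gm23378 and Gm14892 had an adjusted p under 0.05 in limma.

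Promoter windows of 300 bases, from 250 before to 50 after the transcript start, were read from RefSeq (GRCm38.p6, the mm10 assembly) for the 8321 tested genes that had one, including 66 of the lowered and 125 of the raised genes. They were searched on both strands for a form of the NF-kB motif (GGG, any 2 bases, TT, any base, CC) and for the AP-1 motif TGANTCA. No window shown holds both, while those of the lowered genes Tnfaip3 and Ccl9, not shown, do. The NF-kB letters occurred in 10 windows of lowered genes (15.2%), 6 of raised genes (4.80%) and 464 of all genes (5.58%). The AP-1 letters occurred in 9.09%, 5.60% and 4.69%. No test was made of these shares, and the share of all windows with either motif was not counted. Of the 20 genes lowered in every leave-out, 12 had a window and 4 held either motif, and those 4 are shown in the direction of transcription, with the motif in capitals. Ccl20 (plus strand, chr1:83116516-83116815) holds 2 overlapping NF-kB matches starting 81 bases before the start, and H2-K1 (minus strand, chr17:34000284-34000583) holds 1 at 125 bases before it. Mmp3 (plus strand, chr9:7445572-7445871) and Nfkbie (plus strand, chr17:45555450-45555749) hold the AP-1 letters at 46 and 156 bases before theirs.
Ccl20: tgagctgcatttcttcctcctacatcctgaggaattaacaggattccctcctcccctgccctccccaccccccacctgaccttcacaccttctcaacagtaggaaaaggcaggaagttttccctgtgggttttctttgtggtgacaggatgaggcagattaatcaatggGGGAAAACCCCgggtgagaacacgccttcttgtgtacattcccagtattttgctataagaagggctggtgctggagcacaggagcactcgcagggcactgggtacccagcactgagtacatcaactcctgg
H2-K1: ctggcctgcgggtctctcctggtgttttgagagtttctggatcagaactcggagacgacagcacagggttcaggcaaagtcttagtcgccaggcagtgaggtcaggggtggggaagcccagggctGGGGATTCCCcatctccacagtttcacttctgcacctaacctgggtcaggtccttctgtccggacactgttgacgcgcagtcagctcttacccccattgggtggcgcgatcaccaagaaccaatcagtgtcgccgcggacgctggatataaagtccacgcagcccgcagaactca
Mmp3: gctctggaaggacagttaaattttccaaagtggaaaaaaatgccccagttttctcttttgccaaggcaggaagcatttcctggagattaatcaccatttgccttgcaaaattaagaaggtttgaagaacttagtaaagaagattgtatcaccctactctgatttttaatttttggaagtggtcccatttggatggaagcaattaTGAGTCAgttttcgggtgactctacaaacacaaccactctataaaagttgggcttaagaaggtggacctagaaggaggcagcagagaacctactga
Nfkbie: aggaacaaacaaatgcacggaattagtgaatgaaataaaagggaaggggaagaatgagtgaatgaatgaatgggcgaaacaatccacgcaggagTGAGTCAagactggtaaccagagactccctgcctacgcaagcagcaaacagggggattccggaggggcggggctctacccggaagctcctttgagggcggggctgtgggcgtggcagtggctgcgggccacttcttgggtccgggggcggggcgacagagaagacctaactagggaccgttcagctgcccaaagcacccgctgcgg
A match describes letters in the window and not a bound site.

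**Figure D2:**
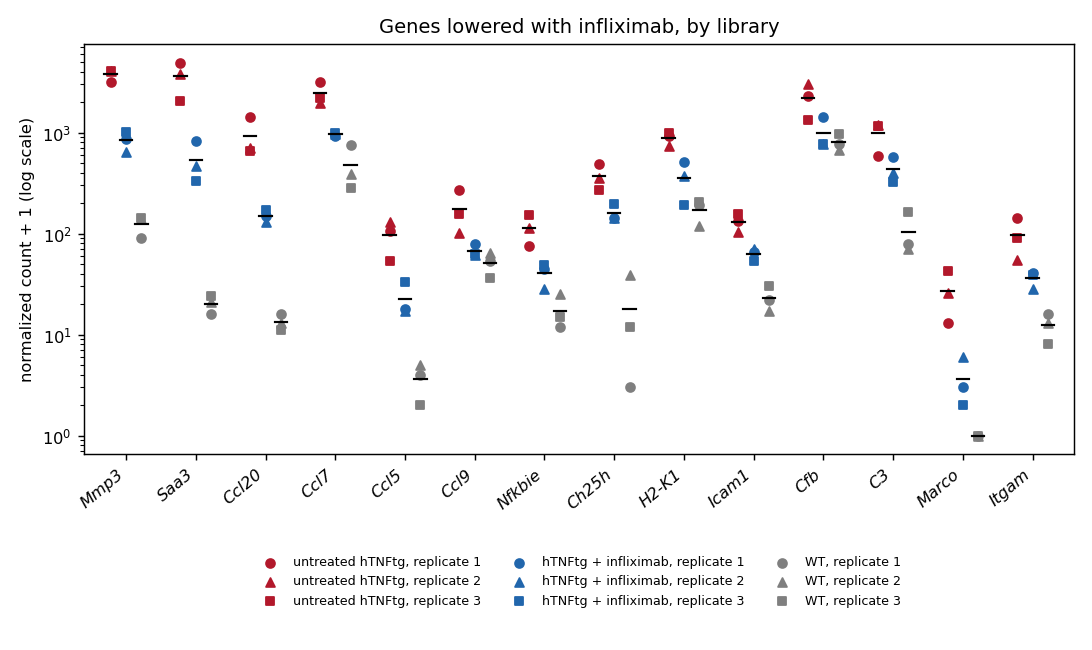
Normalized count plus 1 (log scale) of 14 lowered genes in the untreated hTNFtg (red), infliximab-treated hTNFtg (blue) and WT (grey) libraries. Symbols give the replicate and bars the group mean, and for Mmp3, Saa3, Ccl20 and Ccl7 the treated libraries lie below all untreated ones.

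Chemokines, the proteins that draw leukocytes into the joint, were the list with the lowest median. Of 34 listed genes 19 could be tested, and 4 were lowered (Ccl20, Ccl7, Ccl5 and Ccl9) and 0 raised. Over all genes tested the rule lowered 0.889% and raised 1.42%. On lists this short, 1 or 2 calls are too few to describe a list. The median log2 fold change of the 19 was -0.59, against 0.03 over all genes tested, with 13 below 0. Without untreated replicate 3 or infliximab replicate 3 the list held 6 lowered members, and it held 4 or 5 in the other leave-outs. Ccl7, a monocyte attractant, was 3208, 1943 and 2226 untreated and 927, 971 and 995 treated, which is 2.55 times lower (log2 fold change -1.32 ± 0.28 SE). Ccl5, which attracts T cells and monocytes, was 106, 128 and 53 against 17, 16 and 32, or 4.42 times lower (log2 fold change -2.07 ± 0.44 SE). Both were called in every leave-out. Ccl9, a further monocyte attractant, had 268, 100 and 156 against 78, 60 and 62. Its call ended without untreated replicate 1, at a log2 fold change of -0.91. Ccl2, which was chosen after its values were seen, just missed the rule with 4914, 3855 and 2579 against 1639, 1958 and 1954 (log2 fold change -0.99). The neutrophil attractant Cxcl1, chosen likewise, was 2012, 1819 and 350 against 1454, 1425 and 1157, so that the 2 groups overlapped.

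The NF-kB list holds the subunits, feedback inhibitors of the pathway and some further genes such as Tnfaip2 and Commd1. Of its 20 tested members 2 were lowered (0.889% of all genes tested) and 0 raised, with a median of -0.15. The count was 1 without infliximab replicate 1 or 2 but 3 without untreated replicate 1. Nfkbie, which encodes the inhibitor IkB-epsilon, was 75, 113 and 151 untreated and 44, 27 and 48 treated (log2 fold change -1.47 ± 0.37 SE), and it kept its call in every leave-out. Tnfaip3, the ubiquitin-editing inhibitor A20, was 50, 14 and 21 against 9, 5 and 11. Untreated replicate 1 rested on 8 reads for Tnfaip3, and the call held in 1 of 6 leave-outs, that of untreated replicate 2, with log2 fold changes of -1.90 to -1.02. Upstream of them, 33 members of the list of TNF receptors and signal transducers were tested, and none was lowered or raised with all 6 libraries. Without untreated replicate 2 or infliximab replicate 1 the list held 2 lowered members, and without infliximab replicate 3 it held 1. Tnfrsf1a, the main TNF receptor of fibroblasts, was 884, 522 and 428 against 961, 815 and 761 (log2 fold change 0.53 ± 0.32 SE). Tnfrsf1b, the second receptor, was 137, 99 and 112 against 123, 71 and 146 (-0.08 ± 0.34). For both receptors the groups overlapped. Traf3, a brake on noncanonical NF-kB signalling, was 293, 251 and 285 against 161, 132 and 140. Its groups did not overlap, but its log2 fold change of -0.93 fell short of the rule. Without untreated replicate 2 or infliximab replicate 1 it was lowered, by values just past -1. Mouse Tnf itself was low, at 25, 24 and 24 against 29, 15 and 10 (log2 fold change -0.54 ± 0.49 SE), and the groups overlapped.

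Cytokines and their decoys gave no call in 23 tested entries (the symbol Flt3l stands for 2 of them), and the median was 0.27. There were 2 raised without untreated replicate 2, 1 raised without untreated replicate 1 and 1 lowered without untreated replicate 3. Il6 was 12, 22 and 46 untreated and 24, 15 and 13 treated, overlapping values of a log2 fold change of -0.44 ± 0.57 (SE) whose sign turned without untreated replicate 3 (0.04). Lif, an IL-6 family cytokine, was 44, 27 and 14 against 8, 18 and 8 (log2 fold change -1.21, limma unadjusted P = 0.0748). Il1rl1, the receptor of IL-33, was 835, 676 and 699 against 361, 456 and 495 (log2 fold change -0.76 ± 0.25 SE).

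With all 6 libraries the acute phase and complement list had the most calls. Of its 24 tested members 5 were lowered (0.889% of all genes tested), 0 raised and 20 below 0, with a median of -0.32. Beside Saa3 these were the complement genes C3, Cfb and C1qb and the haemoglobin binder Hp. C3, the central complement component, was 592, 1184 and 1171 untreated and 576, 396 and 323 treated. The lowest untreated library, replicate 1, lay just above the highest treated one. Cfb, a protease of the alternative pathway, had 2323, 3004 and 1333 against 1427, 771 and 764, and its groups overlapped. Hp had 436, 1086 and 653 against 442, 319 and 226, also overlapping by 1 library. Each of C3, Cfb and Hp was called in 3 of 6 leave-outs, and their log2 fold changes ran from -1.49 to -0.97, from -1.48 to -0.90 and from -1.41 to -0.75. All 3 lost their calls without infliximab replicate 3 and without untreated replicate 2, C3 also without untreated replicate 3, and Cfb and Hp also without infliximab replicate 2. C1qb, a chain of the C1q complex made by macrophages, was 187, 62 and 190 against 62, 41 and 80, and was called only without untreated replicate 2 or infliximab replicate 3 (log2 fold changes -1.66 to -0.86 in all). The list held 2 lowered members without untreated replicate 2 or infliximab replicate 2. It held 3 without untreated replicate 3 or infliximab replicate 3, and each of the latter also gave 1 raised member. In all of these leave-outs the chemokine list held more lowered members. Counting is not stated to use strand, and Cfb lies 1 base from Nelfe and overlaps Gm20547, whose values kept a near-constant ratio to it (2.34 to 2.80 and 2.37 to 2.82 over the 6 libraries). Reads of these neighbours cannot be told apart here.

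Matrix proteases and their inhibitors had 2 lowered members of 32 tested (0.889% of all genes tested), Mmp3 and Mmp12, with a median of -0.23. The count was 1 without infliximab replicate 1 or 3 and reached 3 without untreated replicate 1 or 2. Mmp12, the elastase of macrophages, was 75, 26 and 27 untreated and 17, 20 and 9 treated. Its call ended without untreated replicate 1, infliximab replicate 1 or infliximab replicate 3, with a value of -0.82 in the smallest case. Of the substrates, 1 of 26 tested collagens was lowered (0.889% of all genes tested). This was Col5a3, at 754, 1593 and 1761 against 355, 593 and 841. Its groups overlapped and its call ended without untreated replicate 2, untreated replicate 3 or infliximab replicate 1 (log2 fold changes -1.57 to -0.86). None of 37 tested proteoglycans and matrix glycoproteins was called with all 6 libraries, with a median of 0.27, and 1 was raised in every leave-out except that of infliximab replicate 2. Thbs3, a thrombospondin, was 75, 79 and 74 against 127, 175 and 136 (log2 fold change 0.92 ± 0.27 SE), without overlap. Of all genes tested 6.45% were higher without overlap.

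Interferon-stimulated genes had 4 lowered members of 37 tested (Oasl2, Ifit1, Gbp2 and Gbp6), against 0.889% of all genes tested. The list had 0 raised and a median of -0.24. All 4 were low, with untreated values between 12 and 131. Ifit1, an antiviral RNA-binding protein, was 56, 28 and 38 untreated and 11, 18 and 26 treated. Gbp2, a guanylate-binding protein, was 131, 27 and 42 against 15, 11 and 35. Each of the 4 lost its call without untreated replicate 1 and without infliximab replicate 2, and the list then held 1 lowered member in either case. It held 2 lowered members without infliximab replicate 1 or 3, and without untreated replicate 1 it also held 1 raised member. Ifi47, an interferon-inducible GTPase outside the list and among the 12 largest falls, was 37, 34 and 23 against 12, 5 and 7 and was called in every leave-out. In the list of MHC class I and the immunoproteasome, which make and display peptides to T cells, 2 of 17 tested members were lowered. Of all genes tested 0.889% were lowered. In 6 members the groups did not overlap with infliximab lower (5.82% of all genes tested), and the list median was -0.20. H2-K1, a classical class I heavy chain, was 934, 730 and 990 untreated and 514, 371 and 189 treated (log2 fold change -1.41 ± 0.38 SE), and was called in every leave-out of 1 library. Psmb9, an immunoproteasome subunit, was 37, 44 and 71 against 13, 22 and 37, touching at 37, and kept its call only without untreated replicate 1 or infliximab replicate 3 (log2 fold changes -1.47 to -0.75). Without untreated replicate 1 the list held 5 lowered members, and without untreated replicate 2, untreated replicate 3 or infliximab replicate 2 it held 1. Without untreated replicate 2 or 3 it also held 1 raised member.

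The list of lipid mediator enzymes had 1 lowered and 1 raised member of 17 tested, Ch25h and Hpgd, with a median of -0.25. Over all genes tested 0.889% were lowered and 1.42% raised. The lowered count of the list was 0 without untreated replicate 1 and 2 without untreated replicate 2 or infliximab replicate 3. The raised count was 2 without untreated replicate 3. Hpgd, the dehydrogenase that inactivates prostaglandins (chr8:56294585-56321043), was 93, 94 and 98 untreated and 510, 262 and 258 treated. The untreated libraries were nearly equal and all treated ones were higher, 3.61 times on average (log2 fold change 1.77 ± 0.32 SE, limma adjusted p = 0.903), with 1.44 to 1.93 over the leave-outs. Slco2a1, the transporter that takes prostaglandins into cells and chosen after its values were seen, moved the other way with 218, 221 and 206 against 103, 76 and 102 (log2 fold change -1.20 ± 0.26 SE). Ptgs2, the inducible cyclooxygenase COX-2, was 125, 155 and 214 against 77, 74 and 189 and overlapped (log2 fold change -0.64 ± 0.41 SE). Ch25h, which makes 25-hydroxycholesterol, was 486, 354 and 270 against 141, 141 and 196 without overlap. It fell by 1.19 ± 0.30 (SE) on the log2 scale, and without untreated replicate 1 the value was -0.97. Icam1, which leukocytes grip when they leave the vessel, was the lowered member of 24 tested adhesion molecules (0.889% of all genes tested). Icam1 was at 131, 103 and 157 against 65, 70 and 52. Its call ended without untreated replicate 3 or infliximab replicate 3 (log2 fold changes -1.20 to -0.90), and a called gene over it on the opposite strand followed it at a ratio of 1.02 to 1.08, so their reads cannot be told apart. Without untreated replicate 2 the adhesion list held 3 lowered and 2 raised members, without untreated replicate 3 it held 0 lowered and 1 raised, and without infliximab replicate 3 it held 0 of either.

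**Figure D3:**
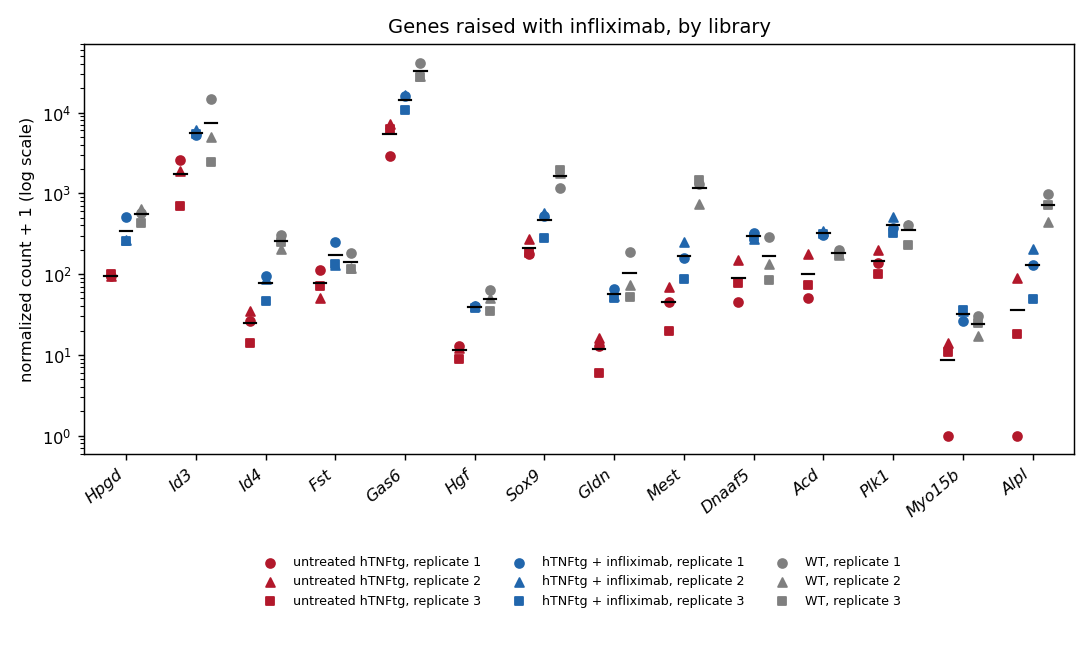
Normalized count plus 1 (log scale) of 14 raised genes in the untreated hTNFtg (red), infliximab-treated hTNFtg (blue) and WT (grey) libraries, with bars at the group means. Hpgd and Hgf are tight within the untreated group, while Myo15b and Alpl stand at 0 in untreated replicate 1.

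Of the raised genes 10 of 193 were on a list, next to 27 of 121 lowered genes and 633 of the 13606 genes tested. The raised genes were thus on the lists about as often as all genes. The lists were chosen with earlier results of these data known, so these shares cannot measure how far the calls favour the listed families. In the TGF-beta and BMP list 3 of 36 tested members were raised (1.42% of all genes tested) and 0 lowered, with a median of -0.12. Without untreated replicate 3 the raised count was 5, without untreated replicate 2 or infliximab replicate 1 it was 2, and 1 member was lowered in every leave-out except that of infliximab replicate 2. Id3 and Id4, helix-loop-helix proteins that block differentiation factors and are classical BMP targets, were both among them. Id3 was 2585, 1913 and 697 untreated and 5220, 6013 and 5415 treated, a mean 3.20 times higher (log2 fold change 1.87 ± 0.46 SE). Id4 was 25, 34 and 13 against 94, 87 and 46 (1.65 ± 0.46). Both kept their calls in every leave-out. Fst, the activin antagonist follistatin, was 112, 50 and 70 against 250, 127 and 134, and its call ended without untreated replicate 2 or infliximab replicate 1, the lowest value being 0.82. Growth factors and binding proteins gave 2 raised and 1 lowered of 36 (1.42% and 0.889% of all genes tested). The raised and lowered counts became 4 and 3 without untreated replicate 1 and 4 and 1 without untreated replicate 3. They were 2 and 2 without untreated replicate 2 or infliximab replicate 3. Gas6, the ligand of the TAM receptors that clear dying cells, was 2890, 7260 and 6211 against 16144, 16463 and 10616, a mean 2.64 times higher (log2 fold change 1.48 ± 0.42 SE). Hgf, hepatocyte growth factor, was 12, 11 and 8 against 39, 39 and 37 (log2 fold change 1.81 ± 0.42 SE), with 2 reads behind the value of untreated replicate 1. Igfbp5, an IGF carrier, was 143, 146 and 277 against 70, 82 and 95, and without untreated replicate 3 its log2 fold change was -0.81.

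The WNT list had 0 calls among 25 tested members, of which 20 were above 0 with a median of 0.17. Without untreated replicate 1 it held 3 raised members, without infliximab replicate 3 it held 1, and without both libraries it held 4. Fzd5, a WNT receptor, was 112, 156 and 161 against 293, 194 and 238 (log2 fold change 0.75 ± 0.29 SE), and Wnt16, a ligand made in joint tissue, was 25, 19 and 7 against 49, 37 and 26 (1.21 ± 0.54, limma unadjusted P = 0.0538). Both, named for their small P, were higher without overlap, as were 6.45% of all genes tested. Cell cycle genes had 2 raised members of 46 tested (1.42% of all genes tested). The count was 4 without untreated replicate 2 and 1 without infliximab replicate 1 or 2, and it was 5 without untreated replicate 1 and infliximab replicate 3 together. Plk1, a mitotic kinase, was 137, 199 and 100 untreated and 366, 513 and 324 treated (log2 fold change 1.49 ± 0.33 SE). Its neighbour Ern2, 19 bases away on the other strand, kept a ratio of 1.72 to 1.82 to it in the 6 libraries, so that their reads cannot be told apart. Gins2, a replication factor, was 212, 195 and 80 against 330, 402 and 253 and lost its call without untreated replicate 3, infliximab replicate 1 or infliximab replicate 2 (0.66 to 1.36).

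With all 6 libraries no member was called on 5 further lists, the immediate-early and AP-1 factors (31 tested), glucocorticoid targets (12), antioxidant and metal response (20), cholesterol synthesis (24) and contractile genes (26). Their medians lay between -0.15 and 0.10. With 1 library left out the antioxidant list still held 0 calls, while the others held up to 3. In 1 direction the most were 3 lowered glucocorticoid targets without infliximab replicate 3, 2 lowered without untreated replicate 2, and 2 raised AP-1 factors without untreated replicate 3. Jun, an AP-1 subunit, was 467, 629 and 694 against 843, 828 and 1006 (log2 fold change 0.59 ± 0.26 SE). Etv5, a transcription factor downstream of growth factor signalling, was 249, 223 and 182 against 464, 333 and 327 (0.77 ± 0.27). Mt1, a metal-binding protein, was 1694, 1265 and 1553 against 680, 676 and 1003 (-0.95 ± 0.28), and Sod2, the mitochondrial superoxide dismutase, was 673, 848 and 738 against 435, 503 and 455 (-0.69 ± 0.24). These 4 were named for being among the smallest P of their lists, and none overlapped between groups. Over all genes tested 5.82% were lower and 6.45% higher without overlap. With all 6 libraries none of the 4 reached the size that the rule asks for. Mt1 passed that size without untreated replicate 2 (-1.07) or infliximab replicate 3 (-1.14).

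**Figure D4:**
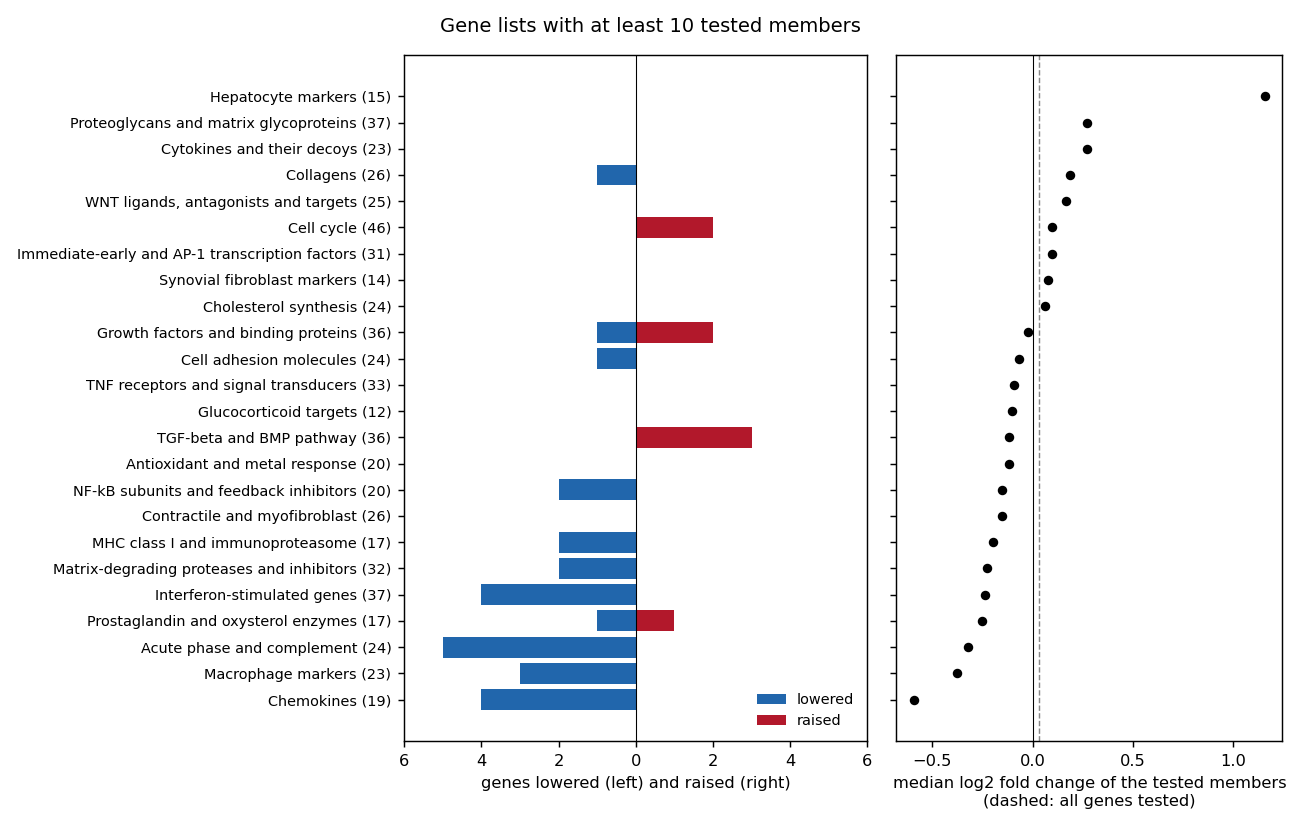
Members lowered (blue, left) and raised (red, right) by the rule in each list with at least 10 tested genes, the number tested in brackets, beside the median log2 fold change of the tested members. With all 6 libraries chemokines have the lowest median (-0.59) and acute phase and complement the most lowered members (5). The dashed line is the median of all genes.

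Among the 12 largest falls of coding genes without overlap, Mmp3, Ccl20, Saa3 and Ccl5 were joined by genes of low level. Marco, a scavenger receptor of macrophages, was 12, 25 and 42 untreated and 2, 5 and 1 treated (log2 fold change -2.89 ± 0.82 SE), and without untreated replicate 3 its mean fell below the filter. Csf2rb, the shared chain of the GM-CSF, IL-3 and IL-5 receptors, was 37, 20 and 26 against 4, 5 and 11 and was called in every leave-out. Kbtbd11, Fabp7, Gdf9 and U90926 had untreated values of 8 to 56 and treated values of 0 to 8, and they were called in 4, 3, 1 and 4 of 6 leave-outs. Kbtbd11 was lost without untreated replicate 3 or infliximab replicate 1, Fabp7 without untreated replicate 1 or 2 or infliximab replicate 1, and U90926 without untreated replicate 2 or infliximab replicate 3, while Gdf9 was kept only without untreated replicate 2 (log2 fold changes of the 4 between -3.33 and -1.65). Lars2, the mitochondrial leucyl-tRNA synthetase, had the largest fall among these coding genes, but it stood at 1925, 44 and 44 against 14, 22 and 17. Its log2 fold change of -3.10 became -1.29 without untreated replicate 1, and the call ended without any one of the infliximab libraries (-3.26 to -2.95). The noncoding genes AY036118 (14481, 1248 and 1730 against 977, 887 and 596) and Gm26917 (7816, 758 and 1008 against 503, 558 and 348) were high in that same library, and their part in the value of Lars2 was not tested.

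The 12 largest rises among coding genes without overlap ranged from genes near the floor to Id3, described above. Gldn, the adhesion protein gliomedin, was 12, 15 and 5 untreated and 65, 52 and 49 treated (log2 fold change 2.38 ± 0.48 SE) and was called in every leave-out, as were Mest, Acd, Id3 and Dnaaf5. Mest, an imprinted gene of mesoderm, was 44, 68 and 19 against 156, 251 and 86, next to 726 to 1465 in WT SFs. Dnaaf5, a dynein assembly factor, was 44, 148 and 77 against 317, 274 and 286. Acd, a telomere protein, was 50, 177 and 73 against 307, 343 and 315, and the overlapping gene Carmil2 stood at a ratio of 2.55 to 2.99 to it, so that their reads cannot be told apart. 6 of the 12 (Myo15b, Pkp1, Olfml2a, Cby1, Paqr3 and Ppp1r35) were at 0 in untreated replicate 1, where a count of 0 allows up to 18.6. In the other untreated libraries they stood at 5 to 17, and with infliximab at 13 to 41. Each of them was called in 2 or 3 of the 6 leave-outs and in none that left out infliximab replicate 1, 2 or 3 (log2 fold changes 1.13 to 3.52 over all leave-outs). The remaining gene, 1700008O03Rik, was 6, 16 and 5 against 64, 37 and 23 and lost its call without infliximab replicate 1 (log2 fold changes 1.76 to 2.59). Among all 193 raised genes 72 (37.3%) had at most 3 reads in that library and 12 had none, against 18.7% of all genes tested with at most 3 reads and 6.61% of the lowered genes.

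Of 29 listed macrophage markers 23 could be tested, and 3 were lowered (Marco, Itgam and C1qb), against 0.889% of all genes tested. The list had 0 raised and 19 below 0, with a median of -0.38. The summed level was 10243, 4828 and 8699 in the untreated libraries, 5778, 3345 and 6944 with infliximab and 267 to 1391 in WT. The ranges of the first 2 groups overlapped, and only Timd4 and Vsig4 were at 0 in all 6 libraries. Itgam, the CD11b integrin, was 143, 54 and 89 against 40, 27 and 38, and without untreated replicate 1 its log2 fold change was -0.99, so that the list then held 1 lowered member, Marco. It held 2 without untreated replicate 3 or infliximab replicate 1 or 2. Ptprc, the gene of the CD45 antigen used for depletion, was 31, 9 and 12 against 28, 8 and 22 (log2 fold change 0.18). The part of macrophages in the lowered chemokine, complement and protease genes was not tested.

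Among other cell types, T and B cell markers were at 11 to 18 in sum untreated and 10 to 23 treated, with Cd3e, Cd8a and Cd79a at 0. The osteoclast list gave 0 calls among 8 tested markers (2 lowered without untreated replicate 1 and 1 without untreated replicate 2) and summed to 5946 in untreated replicate 3 alone, while the other untreated libraries, at 1096 and 1357, lay inside the treated range of 751 to 2413. Of 9 neutrophil markers 3 were tested and 1 was lowered, against 0.889% of all genes tested. This was Camp, a neutrophil granule peptide, at 87, 104 and 41 against 44, 36 and 19. Over the leave-outs it kept its call only without untreated replicate 3 or infliximab replicate 1 (log2 fold changes -1.58 to -0.84). Cxcr2 moved the other way, with 37, 68 and 42 against 54, 68 and 70 (log2 fold change 0.42). The neutrophil sums overlapped, at 608 to 1077 against 710 to 979, and S100a9 and Ly6g were at 0.

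Of 11 chondrocyte markers 3 could be tested, and of 9 osteoblast markers 2. Sox9 and Alpl were called as raised, against 1.42% of all genes tested. Sox9, the master regulator of chondrocytes, was raised from 174, 272 and 179 to 527, 572 and 281, against 1160 to 1939 in WT SFs. The call held in 3 of 6 leave-outs (log2 fold changes 0.91 to 1.42) and ended without untreated replicate 1, infliximab replicate 1 or infliximab replicate 2. Comp, a cartilage matrix protein that tendon also makes, was 299, 848 and 550 against 1933, 1355 and 573 and did not pass. The 11 chondrocyte markers summed to 554 to 1218 untreated and 912 to 2540 treated, most of it from Comp and Sox9. Col2a1, the other tested chondrocyte marker, was 75, 88 and 37 against 55, 133 and 49 (log2 fold change 0.18). Acan stood at 0, 1 and 0 against 0, 4 and 0. Alpl, the alkaline phosphatase of mineralising cells, was 0, 89 and 17 against 129, 206 and 48, so that its groups overlapped and its log2 fold change ran from 1.45 to 4.69 over the leave-outs, with no call without untreated replicate 1 or infliximab replicate 1 or 2. In the hepatocyte list no marker was called among 15 tested, yet the median was 1.16, and 2 were raised without untreated replicate 1 or infliximab replicate 2 and 1 without untreated replicate 2. The list was summed at 2401 in infliximab replicate 3 against 217 to 308 in 4 of the other 5 libraries and 118 in untreated replicate 3. Alb, chosen after its values were seen, was 265 in that library and 1 to 12 in the others. Without untreated replicate 1 and infliximab replicate 3 together, 326 genes were lowered and 367 raised, and the chemokine list held 5 lowered members, the macrophage list 3 and the acute phase list 4.

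**Figure D5:**
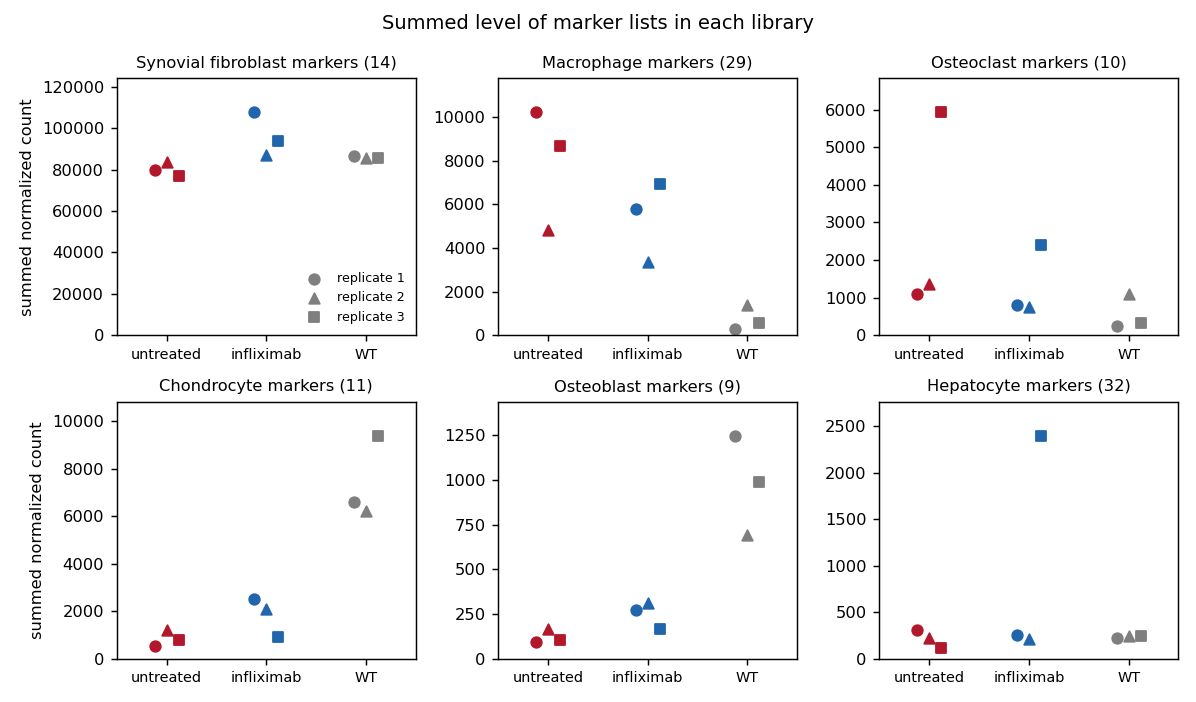
Summed normalized count of 6 marker lists in each library (number of genes in brackets), with symbols for replicates and groups on the horizontal axis. Macrophage markers overlap between untreated and infliximab-treated hTNFtg SFs and are lower in WT, and hepatocyte markers reach 2401 in infliximab replicate 3.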

How the data were processed

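Cultured SFs were profiled by QuantSeq 3′ mRNA sequencing on an Ion Proton. According to the methods, TopHat2 aligned the reads to mm10 and Bowtie2, at its very sensitive setting, those left over. Reads per gene came from GenomicRanges, and metaseqR ran DESeq (versions not given in the sources used here). The values that the authors deposited are a score, taken here as counts divided by a size factor of each library and then rounded. The signal deposited by the authors for untreated replicate 1 is whole reads times a factor, since 1 read is worth 6.21 there and 100% of its low values fell on rounded multiples of it. In the other libraries 1 read is worth about 1 or less, so whole numbers do not resolve reads and these are approximate. The untreated libraries are in both deposited tables with 0 differing values. Columns with the prefix rpgm (12) were not used, nor were the fold changes, p-values and false discovery rates of the authors' own comparisons.

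R 4.3.3 with limma 3.58.1 fitted a linear model with a trended empirical Bayes variance, tested two-sided, on log2(normalized count + 1), where the pseudocount shrinks the fold changes of low genes, except that a 0 in 1 library can make them larger than the fold of the group means (Myo15b, log2 fold change 2.58 with means 4.09 times apart). It used the 3 untreated and 3 infliximab libraries and adjusted p-values over all 13606 genes. The design assumed normalized counts and was kept for untreated replicate 1. Alternatives were pseudocounts of 5 and 0.5, no filter, quantile or median ratio scaling, array quality weights, robust eBayes, the replicate block, all 9 libraries, edgeR 4.0.16 on approximate reads (229 lowered, 187 raised) and leaving out each library. Removing untreated replicate 1 and infliximab replicate 3 together was added after seeing the data. Scripts were tested on simulated data.

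Genes named were coding ones: the 12 largest falls and rises among called genes without overlap, up to 4 called members of each of 37 lists (otherwise the 2 with the smallest P), and Tnf, Tnfrsf1a, Tnfrsf1b, Ccl5, Ccl20, Mmp3, Ptgs2 and Il6. The members and lists were chosen with earlier results of these data known. A few named genes are not reported here. Intervals between genes that overlap or lie within 1000 bases were checked for shared profiles (ratio constant within 1.2 times).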

Additional observations from a re-analysis of the deposited data

How the results depend on the processing

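Counts are of genes lowered, then raised, by the rule, against 121 and 193. They were 267 and 426 with every gene above 0 tested, 189 and 202 with quantile normalization, 229 and 187 with edgeR, and 306 and 301 with array quality weights. The raised share of the calls, 61.5%, was 45.0% with edgeR and 49.6% with the weights. Array weights also gave 2007 genes at an adjusted p under 0.05, from weights of 28.7 for untreated replicate 2 and 0.134 for replicate 1, and the cause was not tested. Leaving out 1 library gave 89 to 272 lowered, 109 to 457 raised and 0 to 5 genes at an adjusted p under 0.05. The largest counts came without untreated replicate 1 (272 lowered) and replicate 3 (457 raised), with fewer samples in the fit. Without untreated replicate 1 and infliximab replicate 3 together the counts were 326 and 367, with 2 at an adjusted p under 0.05 (Gm23378 and Gm14892). The other alternatives gave 101 to 142 lowered, 182 to 260 raised and 0 adjusted. With the replicate block 142 genes were lowered and 260 raised, 0 adjusted. Deviations of samples with the same number correlated at 0.07, 0.19 and 0.26, which cannot settle whether they share an animal or culture. No label names a shared animal, so no pairing was assumed. Every sample but infliximab replicate 1 correlated best with its own number, which is a hint from the data and not from the design. With array weights the log2 fold change of Atp6v0d2 (0.0797), the log2 fold change of Cxcr2 (-0.0860), the log2 fold change of Krt10 (-0.39), the log2 fold change of Serpina1a (-0.0290) and the log2 fold change of Tnfrsf1b (0.00460) turned sign. Over the leave-outs of 1 library, Fabp4 ran from -0.99 to 0.38 (turning without untreated replicate 1), Tnfrsf1b from -0.30 to 0.22 (turning without untreated replicate 1 or infliximab replicate 2), and Il6 from -0.889 to 0.0384 and Krt10 from -0.18 to 0.94 (both turning without untreated replicate 3). Without both libraries together sign turned for Fabp4 (0.57), the log2 fold change of Egfl7 (-0.0351) and Mylpf (-0.24), which ran from 0.0427 to 0.616 for Egfl7 and from 0.12 to 2.47 for Mylpf when 1 library was left out. None of these genes was called. Depth limits untreated replicate 1 most, where 2544 of 13606 genes had at most 3 reads.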

Other observations

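The genes in this section were chosen after their values were seen. Meg3, Rian and Mirg are noncoding genes of the imprinted Dlk1-Meg3 region of mouse chromosome 12 that were called as raised, and no test of the region was made. Meg3, a long noncoding RNA, was 3257, 6479 and 3835 untreated and 8584, 8498 and 13328 treated (a mean 2.24 times higher), and its call ended without untreated replicate 1 or infliximab replicate 3, the log2 fold change being 0.98 to 1.49 over the leave-outs. Rian, downstream of it, was 81, 159 and 132 against 254, 325 and 455 (1.48 ± 0.35), and was called in every leave-out. Mirg, at the far end, was 93, 147 and 65 against 175, 158 and 271 (1.02 ± 0.37) and was not called without untreated replicate 1 or 3 or infliximab replicate 3 (0.74 to 1.32). In WT SFs Meg3 stood at 8248, 2584 and 2653, a range that holds the untreated values and lies below all treated ones. H19, an imprinted RNA of chromosome 7, was 87, 51 and 25 against 97, 197 and 139, a mean 2.66 times higher, and lost its call without infliximab replicate 2 (log2 fold changes 1.04 to 1.92). Mest and its overlapping neighbour Copg2 also rose, Copg2 from 93, 94 and 44 to 191, 271 and 126, with a ratio between the pair of 1.08 to 2.25. Without untreated replicate 3 the log2 fold change of Copg2 was 0.99 and it was not called. Peg12, also an imprinted gene, went the other way and was called as lowered (log2 fold change -1.44). No fixed list of imprinted genes was tested. In limma no adjusted p of these genes was below 0.05.

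Socs1, a feedback inhibitor of cytokine signalling, was 19, 22 and 6 untreated against 38, 53 and 43 treated (log2 fold change 1.62 ± 0.53 SE), and was not called without infliximab replicate 2 (1.08 to 1.94 over the leave-outs). Tyro3, a receptor of Gas6, was 31, 85 and 86 against 161, 188 and 180 (1.51 ± 0.41, called in every leave-out). Gadd45a, a stress-induced gene, was 93, 59 and 139 against 32, 29 and 39 (-1.44 ± 0.38, called in every leave-out). Ltbp4, which anchors latent TGF-beta, was 75, 80 and 70 against 158, 174 and 235 (1.30 ± 0.27), and Folr2, a folate receptor, was 100, 88 and 86 against 277, 178 and 233 (1.30 ± 0.27).

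Neighbouring calls were common. Among the 314 called genes, 35 pairs overlapped or lay within 1000 bases of each other, and 34 of them were called in the same direction. In 21 pairs, made of 36 genes, the values kept a ratio constant within 1.2 times over the 6 libraries. Counts of called genes therefore include 36 whose reads cannot be assigned to 1 of 2 or more neighbours here.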
